A study of Rattus norvegicus with 20 samples.

Results

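The somatostatin receptor genes Sstr1, Sstr2, Sstr3, Sstr4 and Sstr5 were taken by symbol from tables of hippocampal mRNA, where they are 5 of 17168 genes. RNAseq was run on 20 female rats at 4 months of age, with 1 library per rat and none pooled, for a comparison of genotypes and one of treatments, each with its own table. In the genotype comparison, 5 wild-type rats that were not treated (WTNT) were set against 5 TgF344-AD rats that were not treated (TGNT), and both groups ate normal rodent chow. In the treatment comparison, 4 further TGNT rats on normal chow were set against 6 TgF344-AD rats given DZ/DIB in chow from 52 days of age (TGTR). DZ is diazoxide, an opener of ATP-sensitive potassium channels, and DIB is dibenzoylmethane, a compound related to curcumin. All TGNT and TGTR rats come from a transgenic Fischer line that expresses human APPsw, the amyloid precursor protein with the Swedish mutation, beside a second human transgene, both from the prion promoter. By the study's methods, rats were tested in a radial arm maze at 4 months, with food restricted. Some were then taken for RNA sequencing. The labels give the left hippocampus as the tissue, whereas the methods of the study name the right. The treatment comparison holds no treated wild-type rats, so a response to DZ/DIB outside the transgenic background was not measured. The family was chosen by its gene symbols, with earlier fold changes and RPM of the same 2 comparisons in view, so its differences between groups are given as a description without a test.

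Somatostatin is a peptide made in the hippocampus mainly by GABAergic interneurons, many of which contact the dendrites of principal cells. Its receptors are G protein-coupled receptors of the Gi/o class, which lower adenylyl cyclase activity, open GIRK potassium channels and close voltage-gated calcium channels. Cortistatin, a related peptide with its own gene (Cort), binds the same receptors. The protein of Sstr3 is known for its place in the primary cilium of neurons, and somatostatin is known to raise the level of neprilysin, a protease that breaks down amyloid β.

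Library totals ranged from 5848458 to 9926088 estimated counts in WTNT and 6610498 to 8117561 in TGNT rats of the genotype comparison, and from 11151973 to 13481985 in TGNT and 9215039 to 14175594 in TGTR rats of the treatment comparison. Levels below are in RPM, the read counts that the authors scaled to each library's total with TMM factors, and levels are compared only within a table. They are not per transcript length, so the receptors are not ranked against each other. App, the gene that checks the genotype labels, averaged 1101 ± 47.5 RPM (SD, n = 5) over WTNT rats and 2187 ± 122 RPM (SD, n = 5) over TGNT rats, with no overlap (log2 fold change 1.00, edgeR quasi-likelihood test, adjusted p = 2.45e-07). In the treatment comparison App averaged 2478 ± 179 RPM (SD, n = 4) over TGNT rats and 2532 ± 163 RPM (SD, n = 6) over TGTR rats. Markers of CA1, of CA2 and CA3 and of the dentate gyrus were present in all groups, and no gene of the 9 marker lists was at 0 in every rat of a group. In TGTR replicate 5 the 10 choroid plexus genes summed to 3052 RPM, against a TGTR median of 7.10 RPM, and Ttr, the transthyretin gene among them, stood at 2501 RPM. TGTR replicate 6 also stood apart, with Ttr at 107.6 RPM against 0.25 to 11.7 RPM in the other 18 rats. The receptor and ligand differences of the treatment comparison are therefore also given without replicate 5 and without both rats.

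Sstr1 to Sstr4 were measured well enough to describe. Estimated counts were whole numbers in all 100 values of the 5 genes, and ranged from 57 to 657 for Sstr1, 64 to 285 for Sstr2, 149 to 585 for Sstr3 and 116 to 451 for Sstr4. Sstr5 had 0 reads in 19 of 20 rats and 2 reads (0.184 RPM) in TGNT replicate 4 of the treatment comparison. A count of 0 allows up to 3 counts, which were worth 0.307 to 0.512 RPM in WTNT, 0.374 to 0.452 RPM in TGNT of the genotype comparison, 0.225 to 0.276 RPM in TGNT of the treatment comparison and 0.212 to 0.303 RPM in TGTR rats. These limits cover counting error only. Sstr5 was thus not detectable at this depth in nearly all rats, and no fold is given for it.

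Sstr1 varied widely from rat to rat, most of all among WTNT rats, and its groups overlapped in both comparisons. Its RPM were 12.3, 21.4, 58.4, 9.73 and 49.4 in WTNT replicates 1 to 5, and 35.1, 44.2, 44.4, 33.1 and 31.3 in TGNT replicates 1 to 5 of the genotype comparison. WTNT replicates 3 and 5 lay above all TGNT rats and the other 3 WTNT rats lay below all of them, so that the TGNT values sat inside the WTNT range. WTNT rats averaged 30.2 ± 22.3 RPM (SD, n = 5), TGNT rats averaged 37.6 ± 6.24 RPM (SD, n = 5), and the fitted log2 fold change was 0.31 with a standard error of 0.36. It was 0.69 without WTNT replicate 3 and 0.08 without WTNT replicate 4. The highest WTNT rat had 6.01 times the level of the lowest. The SD of log2(RPM + 1) in WTNT rats was larger for Sstr1 than for 99.8% of the 11331 genes averaging 10 counts or more.

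The same breadth was seen in the treatment comparison. Sstr1 RPM were 54.8, 23.0, 18.2 and 17.8 in TGNT replicates 1 to 4, and 21.8 at the lowest, 32.5 at the median and 49.9 at the highest in the 6 TGTR rats. A single TGNT rat, replicate 1, was above all TGTR rats, and TGNT replicates 3 and 4 were below all of them. TGNT rats averaged 28.4 ± 17.7 RPM (SD, n = 4), TGTR rats averaged 34.8 ± 11.1 RPM (SD, n = 6), and the fitted log2 fold change was 0.29 with a standard error of 0.319. It became 0.82 without TGNT replicate 1, 0.12 without TGNT replicate 3, 0.17 without TGTR replicate 5 and 0.16 without TGTR replicates 5 and 6. Sstr1 had a larger within-group SD of log2(RPM + 1) than 99.5% of 11979 genes in TGNT rats of this table. The share was 96.8% of 12044 genes in TGTR rats, against 77.3% of 11410 genes in TGNT rats of the genotype table. These shares describe spread and are not tests.

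**Figure D1:**
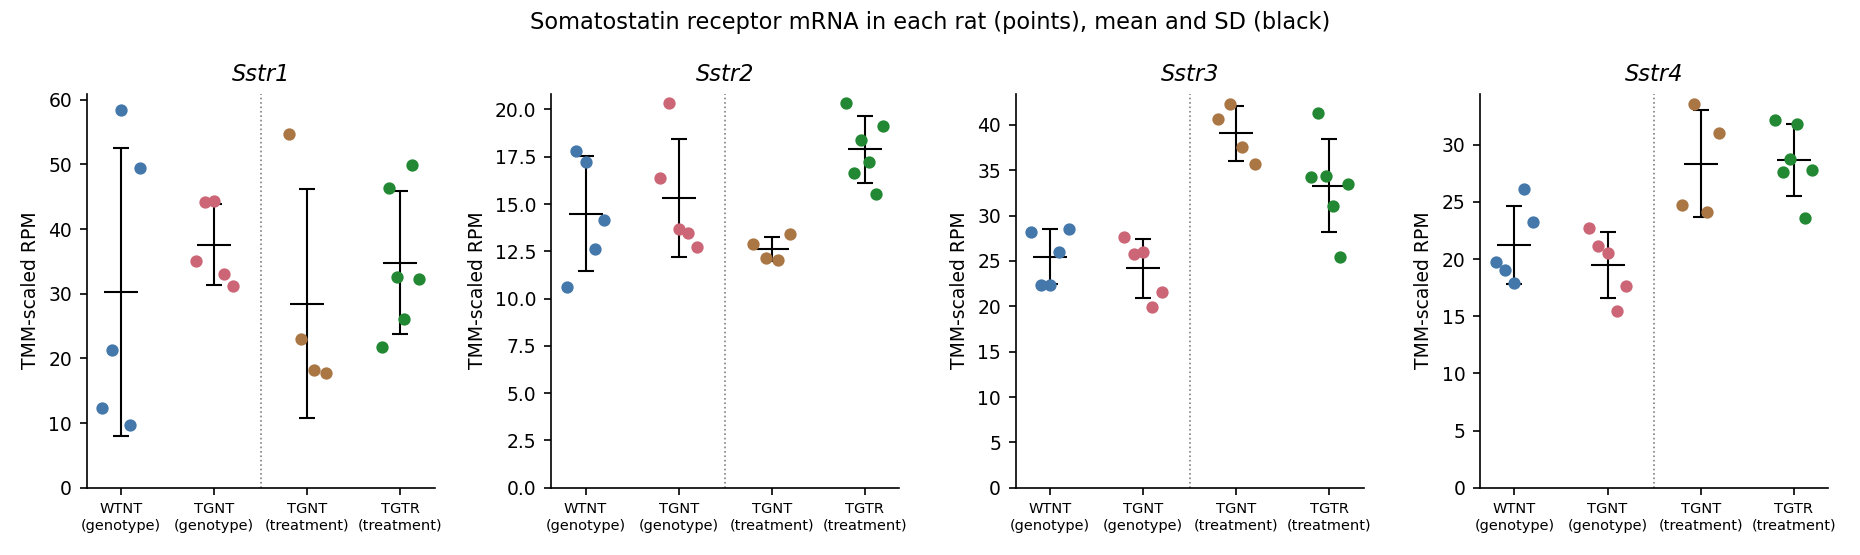
RPM (y axes, from 0) of Sstr1, Sstr2, Sstr3 and Sstr4 in each rat by group, with points for rats and black bars for the mean and SD; the dotted line separates the 2 tables, which are not compared. Sstr1 spreads from 9.73 to 58.4 RPM within WTNT rats, and all 6 TGTR rats lie above the 4 TGNT rats of the treatment comparison for Sstr2.

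Sstr2 was the receptor whose groups separated in the treatment comparison. Its RPM were 12.9, 12.2, 12.02 and 13.4 in TGNT replicates 1 to 4, and 15.5 at the lowest, 17.8 at the median and 20.3 at the highest in TGTR rats. All 6 TGTR rats lay above the highest TGNT rat. TGNT rats averaged 12.6 ± 0.658 RPM (SD, n = 4), TGTR rats averaged 17.9 ± 1.75 RPM (SD, n = 6), and the fitted log2 fold change was 0.51 with a standard error of 0.0887, or 1.42-fold. Leaving out each rat in turn gave 0.46 to 0.54, 0.54 was the value without TGTR replicate 5, and 0.53 was the value without TGTR replicates 5 and 6. Groups did not overlap, with TGTR higher, for 0.686% of the 14861 genes that had reads in this table. The SD of log2(RPM + 1) of Sstr2 was larger than that of 22.6% of 11979 genes in these TGNT rats. In TGTR rats the share was 53.3% of 12044 genes, and in TGNT rats of the genotype comparison it was 83.8% of 11410 genes. In the latter group the highest rat had 1.60 times the level of the lowest. In bulk tissue, a different number of cells of a type and a different amount of RNA per cell cannot be told apart, for this gene and for those that follow.

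In the genotype comparison Sstr2 overlapped between the groups, as did the other receptors, while 0.601% of the 14634 genes with reads did not. Its RPM were 10.6, 17.8, 17.2, 12.6 and 14.2 in WTNT replicates 1 to 5, and 16.4, 20.4, 13.7, 13.5 and 12.7 in TGNT replicates 1 to 5. A single TGNT rat, replicate 2, was above all WTNT rats, and 2 WTNT rats were below all TGNT rats. WTNT rats averaged 14.5 ± 3.05 RPM (SD, n = 5), TGNT rats averaged 15.3 ± 3.14 RPM (SD, n = 5), and the fitted log2 fold change was 0.06 with a standard error of 0.16. Its sign turned without TGNT replicate 2, where it was -0.06.

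Sstr1 was the most variable receptor, except in TGNT rats of the genotype comparison, where Sstr2 was. Sstr2 was also the receptor with separated groups in the treatment comparison. For these reasons the upstream sequences of Sstr1 and Sstr2 are shown. They are the 250 bases before the RefSeq start of each gene on the plus strand of GRCr8, a later build than the rn6 build named for the counts, at chr6:81567233-81567482 for Sstr1 and chr10:99163103-99163352 for Sstr2. Capitals mark a cAMP response element (CRE, TGACGTCA, its own reverse complement) or, where there is none, its shorter core (TGACG, or CGTCA on the other strand).
Sstr1: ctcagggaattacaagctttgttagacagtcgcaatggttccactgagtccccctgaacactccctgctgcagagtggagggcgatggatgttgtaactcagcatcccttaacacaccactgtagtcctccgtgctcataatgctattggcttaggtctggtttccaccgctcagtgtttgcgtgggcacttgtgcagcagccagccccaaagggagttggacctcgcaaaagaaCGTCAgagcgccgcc
Sstr2: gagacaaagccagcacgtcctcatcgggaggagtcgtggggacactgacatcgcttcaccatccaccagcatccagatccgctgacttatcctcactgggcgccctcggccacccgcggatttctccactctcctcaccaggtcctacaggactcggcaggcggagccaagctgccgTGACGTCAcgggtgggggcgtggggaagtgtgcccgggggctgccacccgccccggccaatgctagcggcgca

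The Sstr2 sequence held the full CRE at 73 to 66 bases upstream, a motif found in 1.7% of the 27457 RefSeq promoters of the same length. CREs are bound by CREB, a transcription factor that acts downstream of cAMP and calcium. The Sstr1 sequence held a core at 15 to 11 bases upstream, and cores (full CREs included) were found in 19.0% of all promoters. None of the Sstr3, Sstr4 and Sstr5 upstream sequences held either motif. A CCAAT box (CCAAT or ATTGG) was found in Sstr1, Sstr2 and Sstr4 and in 34.3% of all promoters, a GC box (GGGCGG or CCGCCC) in Sstr2 and Sstr5 and in 32.4%, and TATAAA (or TTTATA) in none of the 5 receptors and in 13.1%. The GC content was 54.4% for Sstr1, 66.4% for Sstr2, 63.2% for Sstr3, 72.0% for Sstr4 and 65.2% for Sstr5, against a median of 52.0%. These matches describe letters in a window, and no binding was measured.

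Sstr3, the receptor of the neuronal cilium, lay lower in most TGTR rats than in TGNT rats of the treatment comparison. Its RPM were 40.7, 42.3, 37.5 and 35.7 in TGNT replicates 1 to 4, and 25.4 at the lowest, 33.9 at the median and 41.3 at the highest in TGTR rats. Below the lowest TGNT rat lay 5 of the 6 TGTR rats, while TGTR replicate 2 lay within the TGNT range. TGNT rats averaged 39.0 ± 2.99 RPM (SD, n = 4), TGTR rats averaged 33.3 ± 5.15 RPM (SD, n = 6), and the fitted log2 fold change was -0.22 with a standard error of 0.104. The lowest value was that of TGTR replicate 5, the rat with the choroid plexus genes, and without it the log2 fold change was -0.16, or -0.15 with TGTR replicate 6 left out too.

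In the genotype comparison the Sstr3 groups overlapped widely. Its RPM were 28.2, 22.3, 22.3, 25.9 and 28.5 in WTNT replicates 1 to 5, and 27.6, 25.8, 26.0, 19.9 and 21.6 in TGNT replicates 1 to 5. WTNT rats averaged 25.4 ± 3.04 RPM (SD, n = 5), TGNT rats averaged 24.2 ± 3.27 RPM (SD, n = 5), and the fitted log2 fold change was -0.06 with a standard error of 0.111.

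Sstr4 differed least between TGTR and TGNT rats. Its RPM were 24.7, 33.6, 24.1 and 31.0 in TGNT replicates 1 to 4, and 23.6 at the lowest, 28.3 at the median and 32.2 at the highest in TGTR rats. TGNT rats averaged 28.4 ± 4.68 RPM (SD, n = 4), TGTR rats averaged 28.6 ± 3.15 RPM (SD, n = 6), and the fitted log2 fold change was 0.02 with a standard error of 0.108. With each rat left out in turn it ran from -0.05 to 0.11, and it was 0.07 without TGTR replicate 5 and 0.09 without TGTR replicates 5 and 6.

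In the genotype comparison Sstr4 RPM were 19.7, 19.0, 17.9, 26.1 and 23.3 in WTNT replicates 1 to 5, and 22.7, 21.1, 20.5, 15.5 and 17.7 in TGNT replicates 1 to 5. WTNT replicates 4 and 5 lay above all TGNT rats, TGNT replicates 4 and 5 lay below all WTNT rats, and the remaining rats overlapped. WTNT rats averaged 21.2 ± 3.41 RPM (SD, n = 5), TGNT rats averaged 19.5 ± 2.89 RPM (SD, n = 5), and the fitted log2 fold change was -0.11 with a standard error of 0.128.

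Set beside the whole tables, 0 of the 5 receptors passed an adjusted p of 0.05 with a fold of at least 1.5 in either comparison, where 0.0116% of the genes passed between TGNT and WTNT and 0% (0 of 17168) between TGTR and TGNT (edgeR quasi-likelihood test, Benjamini-Hochberg). At an unadjusted p under 0.05, 0 receptors were counted in the genotype comparison, where 3.23% of all genes and 3.79% of those with reads were, and 1 (Sstr2) in the treatment comparison, where 4.91% of all genes and 5.67% of those with reads were. DESeq2 and limma-trend gave the same 4 receptor counts. By DESeq2 without a fold threshold, a setting added after seeing the data, 1 receptor (Sstr2) and 0.0524% of all genes were called between TGTR and TGNT. Every other alternative called 0 receptors. Since the family was chosen with these comparisons known, nothing is read from these counts. The median log2 fold change of Sstr1 to Sstr4 was 0.0012 between TGNT and WTNT, with 2 higher and 2 lower, against 0.0063 over the 11357 genes averaging 10 counts or more, of which 52.4% were higher. Between TGTR and TGNT it was 0.16, with 3 higher and 1 lower, against 0.00025 over 12029 genes, of which 50.1% were higher.

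**Figure D2:**
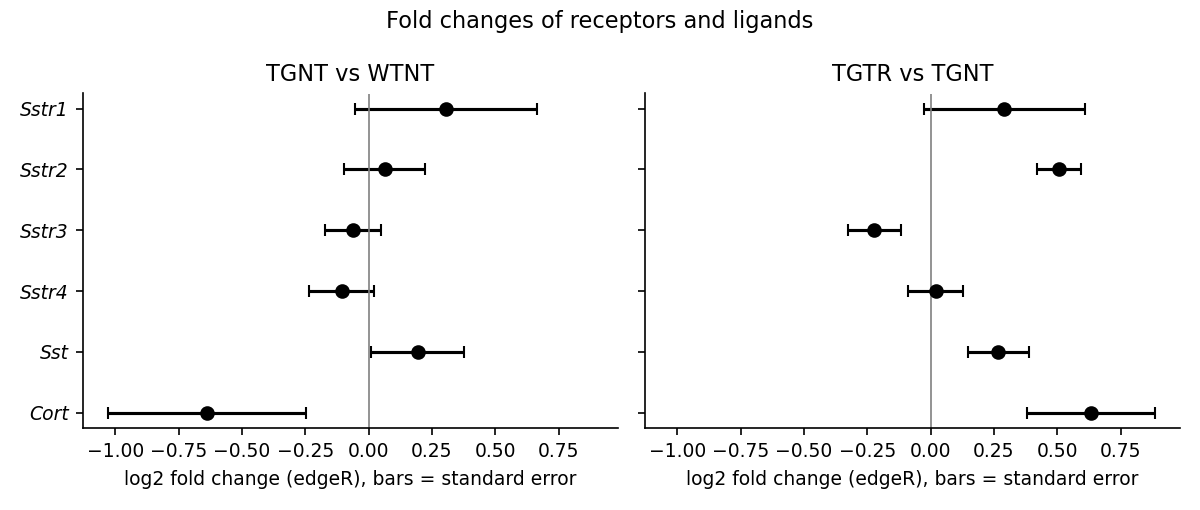
The log2 fold changes (x axis) of 4 receptors and 2 ligands (y axis) from the edgeR fits, with standard errors as bars, for TGNT over WTNT rats (left) and TGTR over TGNT rats (right). Sstr2 lies at 0.51 on the right and at 0.06 on the left, and Sstr1 has the widest bars of the receptors in both.

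The ligand genes are not members of the family and are given with their tests, although they too were listed with earlier results known. Sst, the gene of the somatostatin precursor, had RPM of 16.6, 18.3, 30.9, 15.4 and 30.6 in WTNT replicates 1 to 5 and 23.5, 25.0, 23.7, 24.3 and 31.0 in TGNT replicates 1 to 5. As with Sstr1, WTNT replicates 3 and 5 were high and the other 3 WTNT rats were low, below all TGNT rats. WTNT rats averaged 22.4 ± 7.75 RPM (SD, n = 5), TGNT rats averaged 25.5 ± 3.14 RPM (SD, n = 5), and the fitted log2 fold change was 0.19 (SE 0.182, edgeR adjusted p = 1, exact two-sided permutation p = 0.373).

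In the treatment comparison Sst RPM were 59.6, 43.8, 37.9 and 42.2 in TGNT replicates 1 to 4, and 46.5 at the lowest, 56.6 at the median and 63.6 at the highest in TGTR rats. All TGTR rats lay above TGNT replicates 2 to 4, while TGNT replicate 1, also the highest in Sstr1, lay within the TGTR range. TGNT rats averaged 45.9 ± 9.48 RPM (SD, n = 4), TGTR rats averaged 55.1 ± 6.61 RPM (SD, n = 6), and the fitted log2 fold change was 0.27 (SE 0.121, edgeR p = 0.0459, adjusted p = 0.99, exact permutation p = 0.105). The difference did not pass the correction. It was 0.42 without TGNT replicate 1, 0.25 without TGTR replicate 5 and 0.22 without TGTR replicates 5 and 6, and over all alternatives the adjusted p ranged from 0.215 to 1.

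Cort, the gene of the cortistatin precursor, was counted at 3 to 13 reads per rat in the genotype comparison and 10 to 36 in the treatment comparison. Its RPM were 1.93, 2.06, 0.751 and 2.02 in TGNT replicates 1 to 4, and 2.28 at the lowest, 2.53 at the median and 3.13 at the highest in TGTR rats, so that 6 of 6 TGTR rats lay above all TGNT rats. TGNT rats averaged 1.69 ± 0.628 RPM (SD, n = 4), TGTR rats averaged 2.61 ± 0.32 RPM (SD, n = 6), and the fitted log2 fold change was 0.64 (SE 0.253, edgeR p = 0.0262, adjusted p = 0.964, exact permutation p = 0.00952, which is the smallest value that 4 rats against 6 allow). It did not pass the correction over the table, and 1.33% of genes with reads did not overlap between these groups in either direction. It was 0.38 without TGNT replicate 3, 0.59 without TGTR replicate 5 and 0.54 without TGTR replicates 5 and 6, and the adjusted p ranged from 0.629 to 1 over the alternatives.

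Between TGNT and WTNT rats Cort overlapped. Its RPM were 0.497, 1.33, 1.65, 0.853 and 1.12 in WTNT replicates 1 to 5 and 0.499, 0.905, 0.761, 1.07 and 0.374 in TGNT replicates 1 to 5. WTNT rats averaged 1.09 ± 0.441 RPM (SD, n = 5), TGNT rats averaged 0.721 ± 0.285 RPM (SD, n = 5), and the fitted log2 fold change was -0.64 (SE 0.391, edgeR adjusted p = 1, exact permutation p = 0.175). At these counts a difference of this size was not told apart from the spread between rats.

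**Figure D3:**
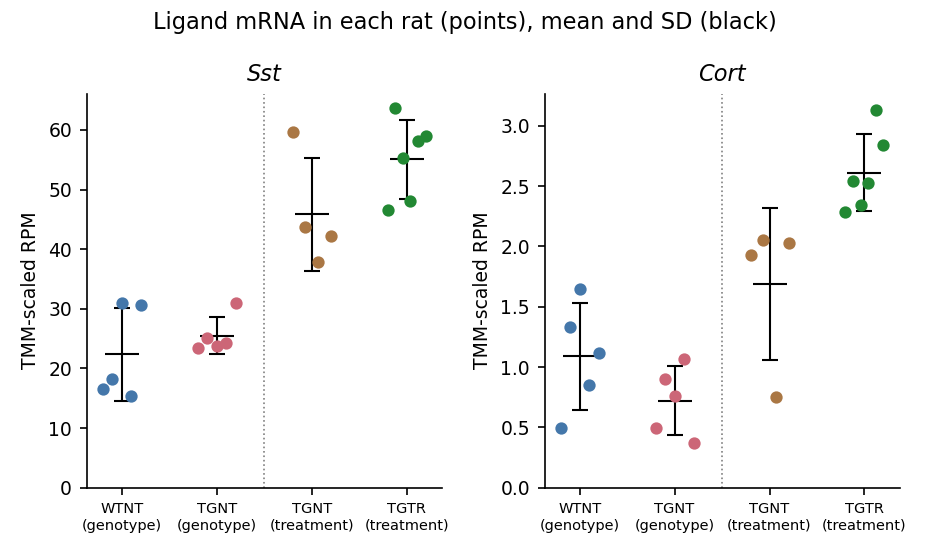
RPM (y axes, from 0) of the ligand genes Sst and Cort in each rat by group, with points for rats and black bars for the mean and SD; the dotted line separates the 2 tables. For Cort the 6 TGTR rats, from 2.28 to 3.13 RPM, lie above the 4 TGNT rats of the same table, of which replicate 3 is the lowest at 0.751 RPM.

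The receptors and Sst were also set against each other from rat to rat, as a description without a test. With the group mean of log2(RPM + 1) removed, Pearson's r between Sstr1 and Sst was 0.891 over 20 rats and Spearman's rho was 0.836, the highest of the 10 pairs among Sstr1 to Sstr4 and Sst. The r was 0.831 without WTNT replicate 3 and TGNT replicate 1 of the treatment comparison, the 2 rats farthest from the median of Sstr1 over all rats, and 0.83 without WTNT replicates 3 and 4, the 2 farthest from their group mean. Within the tables it was 0.875 over the 10 rats of the genotype comparison and 0.932 over the 10 rats of the treatment comparison. In TGNT rats of the genotype comparison alone, Sst did not rise with Sstr1. Replicate 5 had the highest Sst (31.0 RPM) and the lowest Sstr1 (31.3 RPM) of that group. Replicates 2 and 3, the highest in Sstr1 (44.2 and 44.4 RPM), had Sst at 25.0 and 23.7 RPM. The points share the scaling of their table and the tissue taken from each rat.

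The next pair was Sstr3 with Sstr4, with r = 0.564 and rho = 0.541. It was 0.793 in the genotype table and 0.317 in the treatment table, and 0.364 without TGTR replicate 5 and TGNT replicate 4 of the genotype comparison, the 2 rats farthest from the median of Sstr3. Sstr1 and Sstr2 gave r = 0.315 over 20 rats, with 0.543 in the genotype table and -0.419 in the treatment table. The remaining 7 pairs had r from -0.36 (Sstr1 with Sstr4) to 0.179 (Sstr2 with Sst).

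The genes whose pattern was most like that of each receptor were taken from the 11551 genes averaging 1 RPM or more in both tables, by r over 20 rats with group means removed, and are given without a test. For Sstr1 they were Itih3 (r = 0.967), which encodes a hyaluronan-binding inter-alpha-trypsin inhibitor chain, Tcerg1l (0.958) and Tox2 (0.958), an HMG-box gene. The most negative was Kcnj6 (-0.95), which encodes the GIRK2 subunit of the potassium channels that somatostatin receptors open. Kcnj6 ranged from 602 to 1175 RPM in WTNT rats, the group in which Sstr1 was most spread, and from 686 to 881 RPM in TGNT rats of the genotype comparison. In the treatment comparison it ranged from 410 to 766 RPM in TGNT (lowest in the rat with the highest Sstr1) and from 436 to 732 RPM in TGTR rats.

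**Figure D4:**
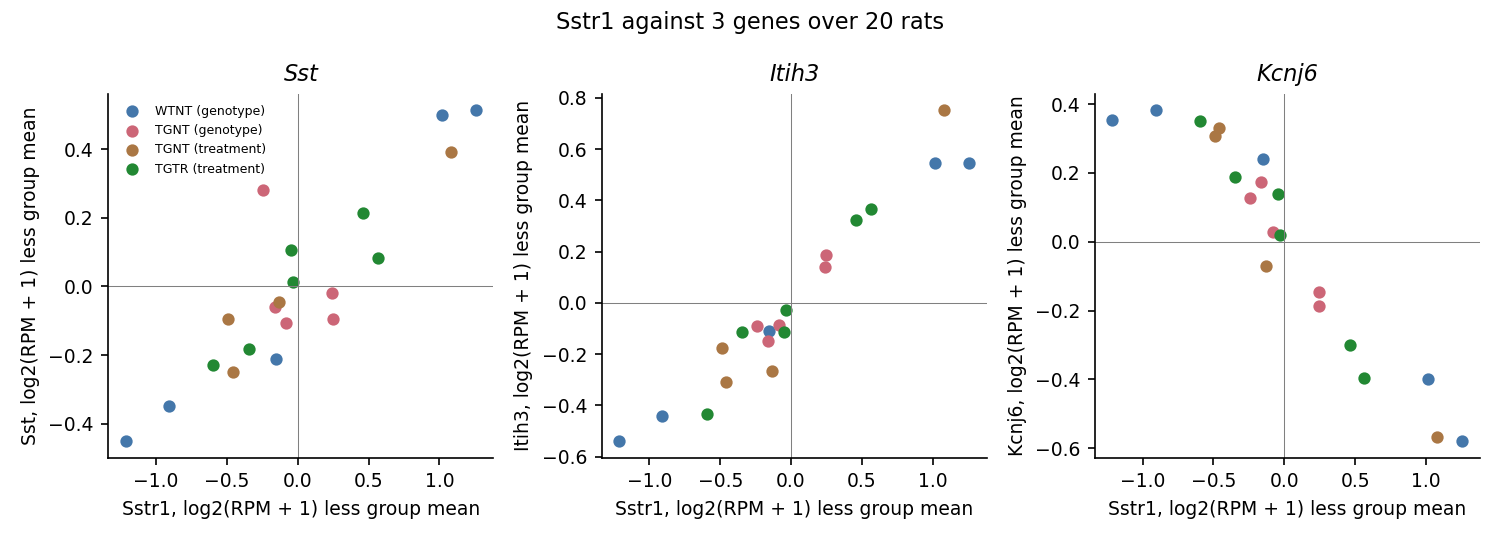
Sstr1 (x axes) against Sst, Itih3 and Kcnj6 (y axes), all in log2(RPM + 1) less the mean of the rat's group, with a point for each of 20 rats coloured by group. Over the 20 rats Sst (r = 0.891) and Itih3 (r = 0.967) rise along Sstr1, and Kcnj6 (r = -0.95) falls. Within TGNT rats of the genotype comparison Sst does not rise along Sstr1.

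For Sstr2 the nearest genes were Notum (r = 0.809), which encodes an enzyme that inactivates Wnt proteins, Pou3f3 (0.804), a neuronal POU transcription factor, and Sik3 (0.779), a salt-inducible kinase, and the most negative was Fgfr1op2 (-0.827). Likeness was weaker for Sstr2 than for Sstr1 and less even between tables, with 0.853 and 0.487 for Notum in the genotype and treatment tables. For Sstr3 they were Cpne6 (0.921), a calcium-dependent membrane-binding copine, Ahdc1 (0.909) and Mthfd1l (0.905), a mitochondrial folate enzyme, with Cab39l (-0.903) at the other end. For Sstr4 they were Rnf5 (0.893), a ubiquitin ligase, Htr1a (0.802), the serotonin 1A receptor, and Slc24a3 (0.799), a sodium/calcium/potassium exchanger, with Brox (-0.885) at the other end. None of these 16 genes passed the thresholds in either comparison.

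Marker lists of hippocampal fields and cell types moved with the receptors from rat to rat, and their part in the results was not tested. Sstr1 ran against the mean log2 level of the dentate gyrus list (r = -0.727 over 20 rats), of the neuron list (-0.695) and of the CA2 and CA3 list (-0.575). The 6 dentate gyrus genes in the table, of 8 listed, summed to 179 to 418 RPM in WTNT, 281 to 478 RPM in TGNT of the genotype comparison, 226 to 299 RPM in TGNT of the treatment comparison and 206 to 331 RPM in TGTR rats. Sstr2 ran with the microglia list (r = 0.63) and the CA1 list (0.575) over 20 rats, but unevenly between the tables. For microglia r was 0.797 in the genotype and 0.351 in the treatment table, and for CA1 0.57 and 0.705. The dentate gyrus list gave -0.305 and 0.669 with Sstr2 in the same order. Between TGTR and TGNT rats, where Sstr2 separated, the 8 microglia genes summed to 302 to 329.9 RPM against 307 to 335 RPM, and the 5 CA1 genes summed to 750.3 to 1207 RPM against 829.8 to 1069 RPM, with 4 of the 5 higher and none past the correction.

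Sstr3 ran against the subiculum and cortex list (r = -0.726) and the choroid plexus list (-0.588). In the genotype and treatment tables r was -0.727 and -0.772 for subiculum and cortex, and -0.365 and -0.779 for choroid plexus. In TGTR against TGNT rats, all 7 subiculum and cortex genes were higher without passing the correction (sums of 394 to 560.2 RPM against 345 to 463 RPM), and the 7 CA2 and CA3 genes averaging 10 counts or more were all lower without passing it (sums of the 8 listed of 409.5 to 569 RPM against 519 to 619.7 RPM). The 10 choroid plexus genes summed to 4.45 to 3052 RPM against 8.14 to 19.97 RPM, with the highest in TGTR replicate 5. That rat also had the lowest Sstr3 of its table (25.4 RPM), and r without it was not computed. Sstr4 ran with the dentate gyrus list (r = 0.562) and the neuron list (0.55). For the neuron list r was 0.343 in the genotype and 0.739 in the treatment table.

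Besides the receptors, 7 lists of 83 genes were counted, of which 82 genes were in the tables (Tulp3 was not). They cover ligands, precursor processing, receptor coupling, desensitization and scaffolds, the cilium, 10 related peptide receptors and 15 interneuron genes. They are called signalling lists here, although the related receptors and the interneuron genes are not themselves parts of somatostatin signalling. In the genotype comparison 0 of the 82 passed the thresholds, and at an unadjusted p under 0.05 edgeR counted 0 higher and 2 lower. These were 2.44% of the genes, against 3.23% of all genes in the table and 3.79% of those with reads. At the same cut DESeq2 counted 3, against 416 of the 17168 genes in the table, and limma-trend counted 3, against 710. The 2 lower genes were Ptpn11, which encodes the phosphatase SHP2 (log2 fold change -0.24, SE 0.0657, edgeR adjusted p = 1), and Crhbp, which encodes a binding protein of corticotropin-releasing hormone found in somatostatin interneurons (-0.24, adjusted p = 1). Both had overlapping groups.

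In the treatment comparison 0 of the 82 passed the thresholds, and at an unadjusted p under 0.05 edgeR counted 7 higher and 2 lower. These were 11.0% of the genes, against 4.91% of all genes in the table and 5.67% of those with reads. At the same cut DESeq2 counted 11, against 681 of the 17168 genes in the table, and limma-trend counted 6, against 983. Among the G proteins, cyclases, channels and phosphatases through which the receptors act, 11 of 19 were higher with a median log2 fold change of 0.01. Kcnj9, which encodes the GIRK3 subunit, was the gene of the lists with the lowest p. TGNT rats averaged 50.6 ± 1.42 RPM (SD, n = 4), from 48.5 to 51.6. TGTR rats averaged 60.0 ± 0.971 RPM (SD, n = 6), from 58.7 to 61.5. The groups did not overlap, with 6 of 6 TGTR rats higher, and 1.33% of genes with reads did not overlap in either direction. The log2 fold change was 0.25 (SE 0.0398, edgeR adjusted p = 0.248), and by DESeq2 it was 0.25 with an adjusted p of 0.00386 but a fold under 1.5. The other GIRK subunit genes had log2 fold changes of 0.03 (Kcnj3) and -0.10 (Kcnj6). Cacna1b, the pore subunit of N-type calcium channels, had -0.11 (edgeR adjusted p = 0.983). In the genotype comparison Kcnj3, Kcnj6 and Kcnj9 had -0.03, -0.25 and -0.02. There Kcnj9 ranged from 36.4 to 45.0 RPM in WTNT and from 29.4 to 56.5 RPM in TGNT rats.

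Of the other lists, the kinases, arrestins and scaffolds had 4 of 14 genes higher between TGTR and TGNT rats, with Rgs4, an inhibitor of Gi/o signalling, at 64.5 ± 42.0 RPM (SD, n = 4) against 119.7 ± 48.3 RPM (SD, n = 6) and a log2 fold change of 0.89 (SE 0.37, edgeR adjusted p = 0.964). The cilium list had 6 of 12 higher, with a median of 0.01. The related peptide receptors had 3 of 8 higher, with Npy2r, a neuropeptide Y receptor, at -0.45 (adjusted p = 0.99). The interneuron list had 12 of 15 higher, with a median of 0.09, Satb1, a chromatin organizer of somatostatin and parvalbumin interneurons, at 0.39 (adjusted p = 0.964) and Elfn1, a synaptic protein of somatostatin interneuron inputs, at 0.20 (adjusted p = 0.964). The enzymes that cut the precursors or break the peptides down had 5 of 10 higher, with the convertase Pcsk1 at -0.14 and the carboxypeptidase Cpe at -0.10 (both adjusted p = 0.99). None of these differences passed the correction, and all of these named genes overlapped between the groups.

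The same lists in the genotype comparison had 3 of 19 coupling genes, 4 of 14 desensitization genes, 8 of 12 cilium genes, 7 of 7 related receptors, 12 of 15 interneuron genes and 3 of 10 processing genes higher in TGNT, against 52.4% of all genes averaging 10 counts or more. The genes with the next lowest p were small in size or low in level. They included Mme, the gene of neprilysin, at 8.65 ± 1.98 RPM (SD, n = 5) over WTNT rats and 9.9 ± 1.57 RPM (SD, n = 5) over TGNT rats (log2 fold change 0.21, edgeR adjusted p = 1), Pam (-0.12), Cacna1a (-0.21), Bbs7 (0.16), Ift88 (0.13), Shank2 (-0.09), Gopc (-0.08), Lhx6 (0.22), Galr1 (0.81) and Oprd1 (0.51), all with adjusted p of 1. In the treatment comparison the remaining genes named by the same rule were Mpdz (-0.11), Tub (0.14) and Oprm1 (-0.20), with adjusted p of 0.99 to 0.991.

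**Figure D5:**
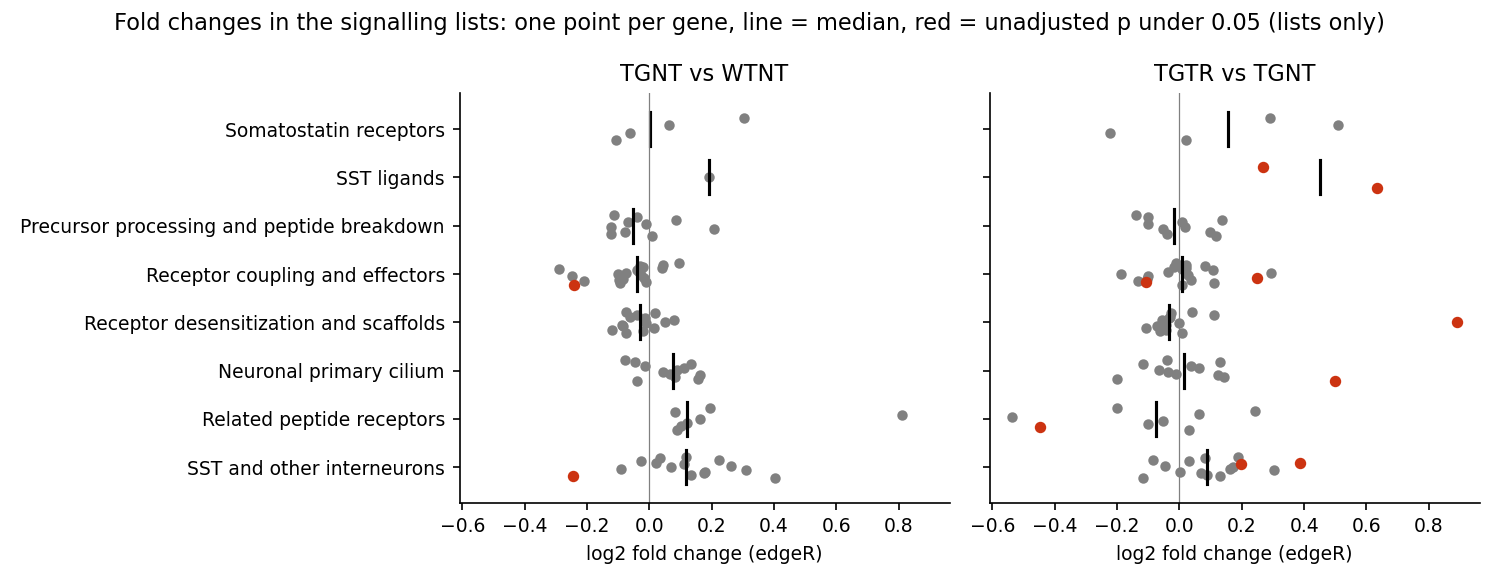
The log2 fold changes (x axis) of the receptors and of the genes of the 7 signalling lists (y axis) that averaged 10 counts or more, for TGNT over WTNT rats (left) and TGTR over TGNT rats (right), with a point per gene, a line at the median and red for an unadjusted edgeR p under 0.05 in the signalling lists. On the right the ligands lie at 0.27 and 0.64 and the highest point among these lists is Rgs4 at 0.89, and none of the points passed the adjusted threshold.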

How the data were processed

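Stranded mRNA libraries of 20 rats were sequenced, 1 per rat. The submitters' processing notes name bcl2fastq 2.17, Bowtie2 2.1.0, RSEM 1.2.15, edgeR and the rn6 build, and the annotation is not given in the sources used here. The authors deposited estimated counts per gene symbol, not normalized, and a signal in RPM that the authors scaled by TMM within each table of 10 rats. No column was left without a sample.

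Estimated counts were rounded and fitted per comparison with edgeR 4.0.16 in R 4.3.3 (TMM, quasi-likelihood test, all 17168 genes, two-sided, Benjamini-Hochberg), and thresholds of 0.05 on the adjusted p and 1.5 on the fold were set. The design took edgeR and the fold from the study's methods. Those methods also name unpaired t-tests with Welch's correction and a step-up false discovery rate, which were not used here. The counts called here are therefore not those of the study. Ligand and App RPM were compared with exact two-sided permutation tests, and correlations are given without a test. Replicates are separate rats. Alternatives were DESeq2 1.42.0, limma-trend (limma 3.58.1) with 1 or 0.1 added to RPM, DESeq2's size factors, filterByExpr, no fold threshold, a replicate block, leaving out each rat and, added after seeing the data, leaving out TGTR replicates 5 and 6. Scripts were tested on simulated data.

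The receptors and all gene lists were chosen with earlier results of these data known. Named genes were the receptors, both ligands, App, the 2 genes with the lowest p per list and comparison, the 3 most like and the most negative gene per receptor, and members of marker lists where these moved with a result. The values of 1 gene that this rule names are not reported here. Kcnj3 and Kcnj6 were named beside Kcnj9 after its values were seen. Promoter sequences are from RefSeq (GRCr8), where all 5 receptors and both ligands matched by symbol. Protein sequences and transcript lengths were not used here.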

Additional observations from a re-analysis of the deposited data

Results flagged for a closer look

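Among 24 groups of 4 to 6 rats tested for a rat far from the others (Sstr1 to Sstr4, Sst and Cort in the 4 groups), 3 held one by Dixon's criterion, where chance gives about 1 in 20, or 1.2. Sstr1 was at 54.77 RPM in replicate 1 of the TGNT rats in the treatment comparison, against 17.76 to 23.05 RPM in the other 3 rats of its group. Cort in TGNT replicate 3 of the same comparison was 0.7514 RPM, against 1.928 to 2.056 RPM in the others. Sst in TGNT replicate 5 of the genotype comparison was 31.02 RPM, against 23.47 to 25.03 RPM in the others. The cause of these values was not tested.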

How the results depend on the processing

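All 19 alternatives gave 0 receptors and 0 signalling genes called between TGNT and WTNT rats, and 2 genes called in the table. Between TGTR and TGNT rats DESeq2 called 3 genes in the table, where edgeR called 0. DESeq2 without a fold threshold, an alternative chosen after seeing the data, called 1 receptor (Sstr2), 1 signalling gene (Kcnj9) and 9 genes in the table, and every other alternative called 0 receptors and 0 signalling genes. The cause was not tested. Leaving out each rat in turn gave 0 receptors, 0 signalling genes and 0 genes in the table between TGTR and TGNT. Same-numbered rats had correlations from -0.21 to 0.34 over 5 pairs in the genotype and from -0.576 to 0.142 over 4 pairs in the treatment comparison. Differently numbered rats were not correlated, so these values cannot decide whether replicate numbers pair the rats. With the replicate block, 0 receptors were called in both comparisons and 2 and 0 genes in the tables, and the log2 fold change was 0.53 for Sstr1 between TGNT and WTNT and 0.52 for Sstr2 between TGTR and TGNT. Over all alternatives the sign stayed the same for all receptors and ligands except Sstr2 between TGNT and WTNT (15 of 17) and Sstr4 between TGTR and TGNT (14 of 18). Cort was removed by filterByExpr in the genotype comparison. With each rat left out, the log2 fold change between TGNT and WTNT ran from 0.08 to 0.33 for Sst and from -0.83 to -0.46 for Cort, and between TGTR and TGNT from 0.18 to 0.42 for Sst and from 0.38 to 0.75 for Cort. Without TGTR replicates 5 and 6, also chosen after seeing the data, 0 receptors, 0 signalling genes and 0 genes in the table were called. At this depth Sstr5 had reads in 1 of 20 rats and Cort had 3 to 36 reads per rat.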
